A study of Mus musculus with 18 samples.

Results

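Mature enterocytes, the absorptive cells of the intestinal lining, made up a small part of cells that had been sorted for Lgr5, a marker of intestinal stem cells. They were taken from the single-cell RNA-seq libraries of the Lgr5+ sort by their own transcripts: a barcode was a member when the apolipoprotein genes Apoa1 and Apoa4 and the bile acid binding protein gene Fabp6 together gave at least 0.5% of its UMIs (unique molecular identifiers, each standing for 1 captured RNA molecule), the goblet cell genes Muc2, Zg16, Clca1 and Fcgbp together gave under 1%, and the Paneth cell genes whose names start with Defa gave under 10%. Barcodes were kept beforehand when they held 1000 to 18000 UMIs, 200 to 4000 genes and under 5% mitochondrial UMIs. By these limits 407 of 25204 kept barcodes of the Lgr5+ sort were members: 65 in Lgr5+WT replicate 1, 64 in Lgr5+WT replicate 2, 83 in Lgr5+Setdb1KO replicate 1 and 195 in Lgr5+Setdb1KO replicate 2. The whole series held 42869 kept barcodes. No barcode sequence was shared by members of different libraries.

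The study asked what the H3K9 methyltransferase Setdb1 does in adult intestinal stem cells. Lgr5+WT and Lgr5+Setdb1KO mice both carried the knock-in allele Lgr5-GFP-CreERT2, which places GFP and the tamoxifen-activated Cre recombinase under Lgr5, and both received a single intraperitoneal dose of tamoxifen (70 mg/kg) 5 days before analysis, at 60 to 65 days of age. In Lgr5+Setdb1KO mice Setdb1 was floxed as well, and Cre removed its exon 3. The cells came from a crypt-enriched fraction of the ileum and were sorted for GFP, and each genotype had 2 libraries. These are described as independent biological replicates. As a model these groups have limits: the knock-in allele is expressed in a mosaic pattern, and Cre acts only in Lgr5+ cells and what descends from them. The enterocytes are cells that the GFP sort was meant to leave behind. Whether a given enterocyte in a Lgr5+Setdb1KO library came from a recombined stem cell is therefore not known. Lineage-traced WT and Setdb1KO mice, used below for comparison, had the same alleles and the ROSA reporter nTnG in addition. Their tamoxifen dose, day and age were the same, with 2 libraries per genotype.

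Enterocytes arise from crypt stem cells, move up the villus within days and change as they go: young cells at the villus bottom make antimicrobial lectins of the Reg3 family, and cells further up turn to the uptake of fat, vitamin A, sugars and peptides. The segment of gut also sets what they make. Proximal cells carry out most fat absorption and lipoprotein assembly with Fabp1, Fabp2, Rbp2 and the apolipoproteins, whereas cells of the distal ileum take up bile acids through Slc10a2 and carry them with Fabp6.

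The 4 libraries held 61197381 and 61853571 UMIs in Lgr5+WT and 50722926 and 81876035 in Lgr5+Setdb1KO. The median member had 8331 and 7185.5 UMIs in Lgr5+WT and 11012 and 4877 in Lgr5+Setdb1KO, in each library more than the median kept barcode (7604, 6083, 9329 and 4686.5). Summed over cells they gave 570649, 483831, 896927 and 1030949 UMIs, in the same order of libraries, and median detected genes of 2301, 2019.5, 2525 and 1585. The share of UMIs from the 3 genes of the rule ran from 0.507, 0.520, 0.523 and 0.501% to a highest cell of 10.5 to 15.8% over the libraries, so the cells stretched from just above the limit to cells given over to these transcripts. There were 4, 7, 10 and 23 members with a share under 0.6%, and 8, 13, 12 and 25 kept barcodes stood just outside, between 0.4 and 0.5%. Transcripts of other cell types were few but not equal among libraries. The goblet list summed to 0.070, 0.066, 0.042 and 0.311% of the members' UMIs and the Paneth list to 0.107, 0.161, 0.119 and 0.374%, both highest in Lgr5+Setdb1KO replicate 2. The enteroendocrine list was at most 0.0423%, again in that library, the tuft cell list at most 0.0115%, and the T cell and blood list had UMIs in Lgr5+WT replicate 1 alone (0.0249%).

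The label was checked against the genes that mark the cell type. Of the 6 given markers, Apoa1, Apoa4 and Fabp6 were used by the rule and Reg1, Reg3b and Gsta1 were not. Reg1, a secreted lectin, stood at 3743, 4967, 4396 and 2829 CPM (a gene's UMIs scaled to a common library total) in the members of the 4 libraries (Lgr5+WT replicates 1 and 2, then Lgr5+Setdb1KO replicates 1 and 2, the order used throughout), which was 13.1 to 18.1 times the level in all other kept barcodes of the same library. For this and the ratios below, 10 CPM was added to both levels, which lowers the ratio most for genes low outside the members. Gsta1, a glutathione S-transferase, stood at 1043, 953, 950 and 922 CPM, 14.1 to 17.2 times that level, and Reg3b at 22963, 25060, 8538 and 5968 CPM, 19.6 to 50.2 times it. Reg1 and Gsta1 marked only part of the members, as given below, and Reg1 had a UMI in 16 of 65, 26 of 64, 32 of 83 and 64 of 195. Genes outside the rule that marked the members most included the bile acid exporter subunits Slc51a (11.1 to 14.1 times) and Slc51b (13.7 to 16.0 times), the apolipoprotein Apoc3 (11.2 to 17.2 times), the peptidases Ggt1 and Anpep, the disaccharidase Sis (6.7 to 9.5 times) and the differentiation keratin Krt20 (5.8 to 7.2 times). These are descriptions, because the cells were chosen by transcripts that move with these genes. Stem cell transcripts were low: the summed members held 1, 1, 1 and 2 UMIs of Lgr5 and 9, 7, 6 and 6 of the proliferation gene Mki67. Olfm4 stood at 433, 149, 109 and 206 CPM against 3256, 2924, 1800 and 1501 CPM in the other kept barcodes. GFP had no UMI in the members, but it stood at only 0.396, 0.512, 0.338 and 0.265 CPM in the other kept barcodes. The members held too few UMIs to show a level that low, so their lack of GFP UMIs tells nothing about it. Of 10 genes on the villus top list, 4 were at or near 0, with no UMI of Nt5e in any library, 0, 0, 0 and 1 UMI of Slc28a2 and 0, 2, 2 and 20 of Ada, of which 17 of the 20 came from 1 cell. Egfr had 0, 1, 0 and 1 UMI. The other 6 were measured, among them Krt20 and the transcription factor Creb3l3 (32, 38, 137 and 100 UMIs), and the whole list summed to 391, 309, 824 and 817 UMIs. Setdb1 itself gave 3 and 9 UMIs in Lgr5+WT and 2 and 4 in Lgr5+Setdb1KO, too few to compare, and its 3′ tag lies outside the deleted exon, so this count does not check the deletion.

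The members were of 2 kinds, which the rule had joined. In 43 of 65, 37 of 64, 40 of 83 and 112 of 195 cells Fabp6 gave more of the UMIs of the 3 genes than Apoa1 and Apoa4 together (Fabp6-led cells, 66.2, 57.8, 48.2 and 57.4%), and in the rest the apolipoproteins gave at least as much (Apoa-led cells). In Apoa-led cells 18 of 22, 25 of 27, 38 of 43 and 72 of 83 had no UMI of Fabp6. In Fabp6-led cells 33 of 43, 31 of 37, 23 of 40 and 74 of 112 had none of Apoa1 or Apoa4, and Apoa1 summed to 329, 42.4, 1399 and 668 CPM there, against 104, 47.2, 215 and 92.5 CPM in empty droplets (barcodes with 10 to 100 UMIs, taken to hold free RNA and no cell). UMIs of all 3 genes occurred in 6.15, 3.13, 6.02 and 4.10% of members. Median UMIs were 7982, 7936, 10148.5 and 4541 in Fabp6-led cells and 9946.5, 6764, 11407 and 5392 in Apoa-led cells, the latter deeper in 3 of 4 libraries.

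The 2 kinds differed in far more than these 3 genes. With 10 CPM added to both levels, 82 genes were at least 2 times higher in Fabp6-led cells and 181 in Apoa-led cells in every library. Fabp6-led cells carried the genes of ileal bile acid handling: the bile acid importer Slc10a2 stood at 89.7, 26.1, 54.0 and 29.1 CPM in them and at 0, 0, 0 and 4.5 CPM in Apoa-led cells, and the bile acid receptor Nr1h4 at 92.5, 55.5, 93.3 and 72.0 against 24.6, 16.9, 18.4 and 13.4 CPM. They also held the posterior patterning genes Hoxb7 (35.4, 19.6, 27.0 and 15.4 against 4.9, 0, 0 and 0 CPM) and Hoxb9 (29.9, 26.1, 12.3 and 18.9 CPM against 0 in every library), the glycosyltransferase Mgat4c (623, 565, 432 and 355 against 24.6, 11.3, 16.3 and 15.6 CPM), the tetraspanins Cd9 and Tspan1, the growth factor binding protein Fgfbp1, and more of the keratin Krt8. Apoa-led cells carried the fat and vitamin A program and the glutathione transferase: Fabp1 stood at 15988, 24611, 25635 and 22867 CPM in them against 32.6, 55.5, 169 and 89.1 CPM, the retinol carrier Rbp2 at 18497, 24278, 26274 and 23061 against 38.1, 35.9, 179 and 178 CPM, and Reg1 at 10522, 13526, 8044 and 6476 against 2.7, 13.1, 12.3 and 32.6 CPM. Gsta1 was likewise a gene of the Apoa-led cells (2765, 2475, 1657 and 2067 against 92.5, 71.8, 101 and 42.8 CPM), as were the sugar exporter Slc2a2, at 0 in all Fabp6-led sums, and the transcription factors Onecut2 (59.1, 67.7, 53.1 and 44.7 against 5.4, 6.5, 2.5 and 15.4 CPM) and Gata4 (9.9, 22.6, 20.4 and 13.4 against 0, 0, 0 and 1.7 CPM). The colon genes Car1 and Hoxb13 had no UMI in either kind. Slc51a, Slc51b, Krt20, the bacteria-binding protein Lypd8 and the chemokine Ccl25 were present in both. Because the cells were split by Fabp6, Apoa1 and Apoa4, and because the region genes were picked after their values were seen, these levels are given with no test.

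**Figure D1:**
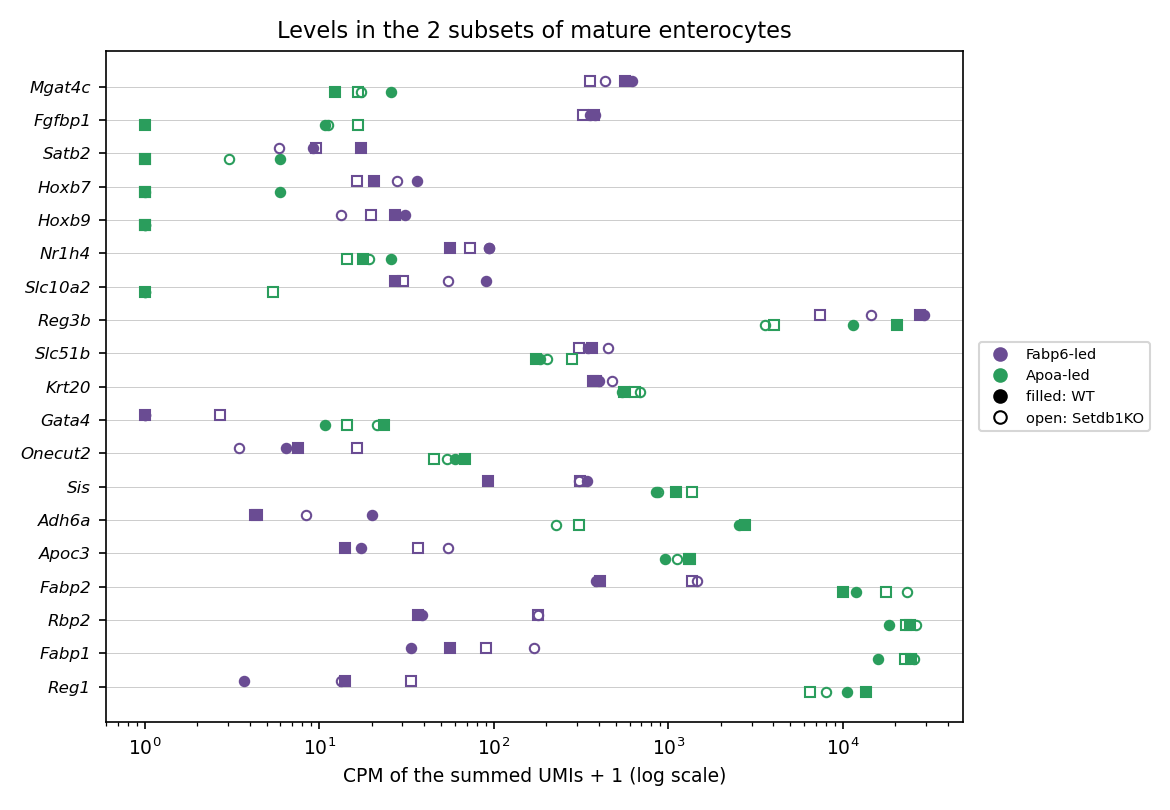
CPM plus 1 on a log axis for 19 genes in the summed Fabp6-led cells (purple) and Apoa-led cells (green) of each Lgr5+ library, with filled marks for Lgr5+WT and open marks for Lgr5+Setdb1KO. The ileal and posterior genes stand higher in the 4 Fabp6-led sums and the fat and vitamin A genes in the 4 Apoa-led sums, for most genes with a wide gap between the kinds in both genotypes.

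Mature enterocytes took up a larger share of kept barcodes in both Lgr5+Setdb1KO libraries than in either Lgr5+WT library, but 4 libraries cannot carry a call. They were 1.36% (95% exact binomial interval 1.05 to 1.74) and 1.04% (0.805 to 1.33) of kept barcodes in Lgr5+WT, and 2.87% (2.29 to 3.55) and 1.71% (1.48 to 1.96) in Lgr5+Setdb1KO. The intervals cover counting error only. The means were 1.20% ± 0.227 (SD, n = 2) and 2.29% ± 0.824 (SD, n = 2), a difference of 1.09 percentage points, and the exact two-sided permutation test gave p = 0.33, the smallest value that 2 libraries against 2 allow. Without Lgr5+Setdb1KO replicate 1 the difference was 0.504 points and without Lgr5+Setdb1KO replicate 2 it was 1.67 points, so a single library moved it. Empty droplets held the 3 genes at 0.0419 and 0.0304% of UMIs in Lgr5+WT and at 0.102 and 0.053% in Lgr5+Setdb1KO, all far under the limit of 0.5%. The GFP gate also sets how many enterocytes a sort lets through, and its part cannot be told apart from that of the genotype in these shares.

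The lineage-traced libraries of the series, in which a nuclear reporter keeps GFP in the progeny of recombined cells, offered the nearest like population. There the same limits picked 351 of 5356 (6.55%) and 77 of 2124 (3.63%) kept barcodes in WT and 10 of 2312 (0.433%) and 65 of 7873 (0.826%) in Setdb1KO, the opposite order. The order was the same with the rule at 0.25% of UMIs, 9.07 and 4.90% in traced WT against 0.995 and 1.13% in traced Setdb1KO. It also held at 1%, at a mitochondrial limit of 10% and from 2000 UMIs (3.63 and 2.34% against 0.497 and 0.712%). The median enterocyte of the traced sort had 6.72 and 7.77% Defa UMIs in WT and 2.22 and 1.89% in Setdb1KO. The Lgr5+ libraries had 0.110 to 0.407%. With goblet genes under 0.25% and Defa genes under 1% no barcode was left in traced WT, and 5 of 2312 and 5 of 7873 were in traced Setdb1KO. Every traced WT enterocyte was over that Defa limit, so this setting cannot compare the shares. The log2 ratio of Setdb1KO to WT was 0.892 in the Lgr5+ sort and -3.03 in the lineage-traced sort, a difference of 3.92, for which relabelling genotypes within each sort gave an exact p of 0.0556, the smallest value its 36 relabellings allow. Make-up differed too: Fabp6-led cells were 30.2 and 41.6% of the traced WT enterocytes and 90 and 89.2% of the traced Setdb1KO ones.

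**Figure D2:**
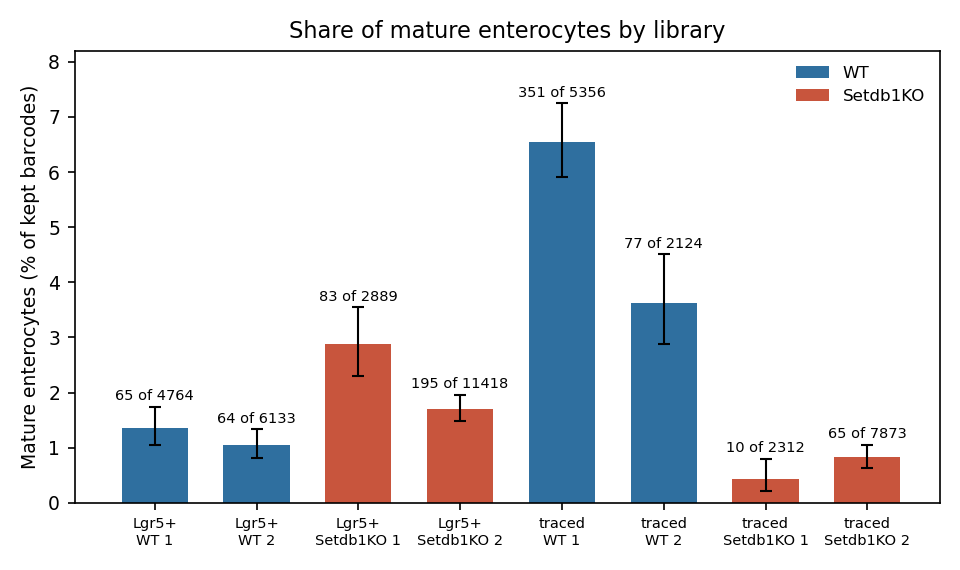
Share of kept barcodes (percent) that met the limits for mature enterocytes in each of the 8 libraries, with bars from 0 and 95% exact binomial intervals that cover counting error only. Both Lgr5+Setdb1KO bars (2.87 and 1.71%) stand above both Lgr5+WT bars (1.36 and 1.04%), and the order is the opposite in the lineage-traced sort at these limits.

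To compare the genotypes within these cells, UMIs were summed per library over the members and tested with edgeR's quasi-likelihood test. The p-values were adjusted by Benjamini-Hochberg over all 5368 fitted genes. The 13 genes of the rule among them were then left out, which left 5355. In this comparison 26 genes (0.486%) passed an adjusted p of 0.05, 15 of them higher (0.28%) and 11 lower (0.205%) in Lgr5+Setdb1KO. Among the genes that rose were those of fat binding (Fabp2), alcohol, glutathione and drug metabolism (Adh1, Gm3776, Gstm3, Ces2a, Ugt2b5, Nat8), heme synthesis (Alad) and guanylin signalling (Guca2b), beside Gm42031, Plscr2, Tm4sf4, Rnase4, Ms4a10 and Hdhd3. Those that fell included antimicrobial and mucosal defence genes (Reg3b, Dmbt1), the alcohol dehydrogenase Adh6a and the propionyl-CoA carboxylase subunit Pccb. Levels below are normalised CPM (scaled by TMM), and fold changes are Lgr5+Setdb1KO minus Lgr5+WT on the log2 scale with their standard error. The libraries are 2 against 2, so a few cells can carry a value, and some but not all such cases are named. For Reg3b, 1 cell gave 2426 of the 13104 UMIs of Lgr5+WT replicate 1.

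**Figure D3:**
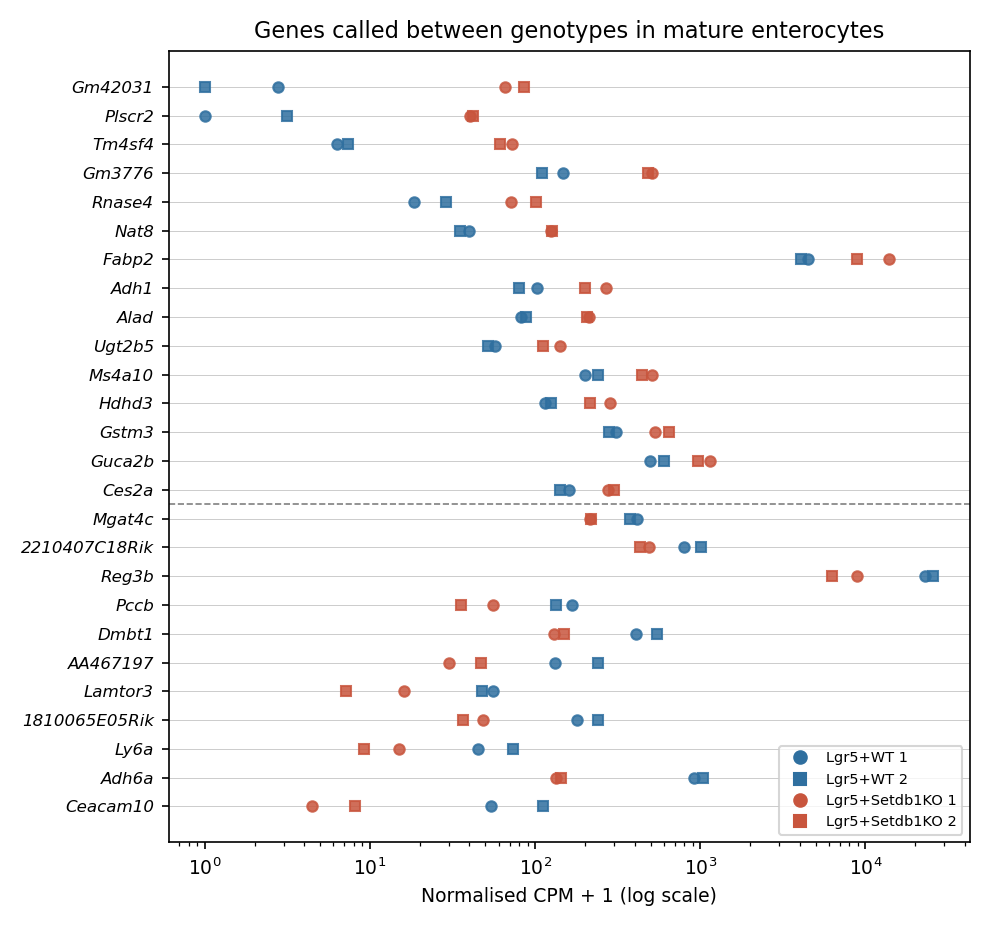
Normalised CPM plus 1 (log axis) of the 26 genes that passed in the summed mature enterocytes of the 4 Lgr5+ libraries, Lgr5+WT in blue and Lgr5+Setdb1KO in red, circles for replicate 1 and squares for replicate 2. The dashed line parts the 11 genes that fell from the 15 that rose, and in no gene do the genotypes overlap.

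Among the antimicrobial genes Reg3b, a lectin that binds bacteria, was the most abundant gene to change. Its normalised CPM were 23045 and 25790 in Lgr5+WT and 8855 and 6266 in Lgr5+Setdb1KO, a log2 change of -1.69 (SE 0.18, adjusted p = 0.00247). Both Lgr5+Setdb1KO libraries lay far below both Lgr5+WT libraries, and the median cell gave Reg3b 0.936 and 1.75% of its UMIs in Lgr5+WT against 0.159 and 0.217% in Lgr5+Setdb1KO. With every cell thinned to 1000 UMIs, 83.1 and 95.3% of Lgr5+WT members and 61.4 and 65.6% of Lgr5+Setdb1KO members had a Reg3b UMI. The neighbouring lectin gene Reg3g was also lower in both Lgr5+Setdb1KO libraries (9484 and 11269 against 2066 and 5180 normalised CPM) but did not pass, with a log2 change of -1.52 (SE 0.33, adjusted p = 0.0887). Reg3a had the opposite sign without passing, at 491 and 396 against 831 and 708 (log2 0.79, SE 0.15, adjusted p = 0.0562), and Reg1 (log2 -0.24, SE 0.21, adjusted p = 0.744) and Gsta1 (log2 -0.05, SE 0.11, adjusted p = 0.925) gave no call. Dmbt1, a secreted scavenger receptor of mucosal surfaces, fell from 410 and 545 to 128 and 149 (log2 -1.78, SE 0.17, adjusted p = 0.00167), and the Ly6 family gene Ly6a from 44.0 and 72.3 to 13.9 and 8.1 (log2 -2.38, SE 0.40, adjusted p = 0.0329), but 17 of its 25 UMIs in Lgr5+WT replicate 1 came from 1 cell. In empty droplets Reg3b stood at 956, 1052, 610 and 314 CPM, lower in Lgr5+Setdb1KO as well and well under the level of the members in each library, and the part of free RNA in the change was not tested. The Reg3 genes resemble each other, and how reads that fit several of them were counted was not checked.

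Reg3b and Reg3g are shown with the 250 bases before their annotated starts, next to Fabp2 and Rbp2 of the fat and vitamin A program, as abundant genes of the antimicrobial and of the absorptive lists; Reg3b and Fabp2 passed in the members, and Reg3g and Rbp2 did not. The sequences are from RefSeq (GRCm38.p6), 5′ to 3′ on the gene's strand, and capitals mark a TATA box (TATAAA), a STAT-type motif (TTCNNNGAA) or a nuclear receptor motif (AGGTCA) found on either strand:
Reg3b, chr6:78370635-78370884 (+): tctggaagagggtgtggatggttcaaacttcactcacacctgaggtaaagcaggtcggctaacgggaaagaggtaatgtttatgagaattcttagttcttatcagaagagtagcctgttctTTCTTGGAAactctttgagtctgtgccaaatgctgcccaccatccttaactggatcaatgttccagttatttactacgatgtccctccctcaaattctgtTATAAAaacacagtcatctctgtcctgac
Reg3g, chr6:78468875-78469124 (-): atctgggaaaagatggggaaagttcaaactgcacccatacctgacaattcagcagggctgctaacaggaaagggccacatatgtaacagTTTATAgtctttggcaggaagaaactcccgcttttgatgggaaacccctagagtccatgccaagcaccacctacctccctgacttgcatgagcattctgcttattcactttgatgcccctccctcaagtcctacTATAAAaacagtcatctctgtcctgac
Fabp2, chr3:122894822-122895071 (+): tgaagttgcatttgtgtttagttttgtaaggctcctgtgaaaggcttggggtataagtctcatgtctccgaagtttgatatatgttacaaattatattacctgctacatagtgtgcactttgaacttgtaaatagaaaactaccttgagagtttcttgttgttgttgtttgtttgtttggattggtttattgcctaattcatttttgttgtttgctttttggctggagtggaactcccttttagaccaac
Rbp2, chr9:98490287-98490536 (+): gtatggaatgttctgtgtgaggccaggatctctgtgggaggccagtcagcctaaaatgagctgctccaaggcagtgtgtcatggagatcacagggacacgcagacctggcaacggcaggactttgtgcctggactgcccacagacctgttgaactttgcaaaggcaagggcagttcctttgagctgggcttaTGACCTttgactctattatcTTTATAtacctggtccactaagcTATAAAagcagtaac
Reg3b held TATAAA 29 to 24 bases before the start and TTCNNNGAA 129 to 121 bases before it. Reg3g held TATAAA 27 to 22 bases before the start and, on the opposite strand, 161 to 156 bases before it. Rbp2 held TATAAA 15 to 10 bases before the start and on the opposite strand 38 to 33 bases before it, and AGGTCA on the opposite strand 58 to 53 bases before it. None of the 3 motifs was in the Fabp2 window. Of 32851 promoters of this length, 12.4% held TATAAA, 7.02% TTCNNNGAA and 14.0% AGGTCA, and of the 22 genes called in the members that had a RefSeq promoter 6, 4 and 4 did.

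Of the fat uptake genes Fabp2 rose. This gene, the intestinal fatty acid binding protein, stood at 4495 and 4071 normalised CPM in Lgr5+WT and at 13866 and 8833 in Lgr5+Setdb1KO (log2 1.41, SE 0.20, adjusted p = 0.0119). In Lgr5+Setdb1KO replicate 1 a single cell gave 3129 of the 11992 UMIs of Fabp2, but after thinning to 1000 UMIs the share of cells with a Fabp2 UMI was also higher in both Lgr5+Setdb1KO libraries, 56.9 and 56.2% against 72.3 and 71.8%. Of 22 genes on the fat uptake list 16 were tested, 15 lay higher in both Lgr5+Setdb1KO libraries than in both Lgr5+WT libraries and none lower, where 21.7% of all tested genes lay higher in this way and 20.4% lower. The list's median log2 change was 0.53 against 0.01 over all tested genes, and 1 member, Fabp2, passed. Its median was 0.28 in the other kept barcodes. In empty droplets the list summed to 0.193 and 0.247% of UMIs in Lgr5+WT and to 0.540 and 0.287% in Lgr5+Setdb1KO. The part of free RNA in this shift was not tested. In Apoa-led cells alone none of 16 passed and the median was 0.12. Others that did not pass were Fabp1 (5726 and 9321 against 14590 and 10474, log2 0.74, SE 0.23, adjusted p = 0.235), the triglyceride synthesis enzyme Mogat2 (200 and 202 against 324 and 280) and the lipoprotein assembly protein Mttp (165 and 164 against 258 and 220). Of the retinoid list 6 of 9 genes were tested, with a median of 0.66 and all 6 higher in both Lgr5+Setdb1KO libraries. The median was 0.62 in the other kept barcodes, and in empty droplets the list summed to 0.0336 and 0.0540% of UMIs in Lgr5+WT and to 0.110 and 0.0721% in Lgr5+Setdb1KO. None passed in edgeR or DESeq2, though 4 had an unadjusted p under 0.05, Rbp2 standing at 6625 and 9182 against 14956 and 10616 (log2 0.69, SE 0.20, adjusted p = 0.202). Over all genes, 610 of 5355 tested had an edgeR unadjusted p under 0.05. Cholesterol genes had a median of 0.34 (18 tested, 12 higher and 0 lower without overlap), digestive enzymes 0.30 (17 tested, 9 and 0) and fatty acid oxidation 0.26 (15 tested, 7 and 2), and none of their members passed in edgeR, with 5, 6 and 5 at an unadjusted p under 0.05 and 0, 1 and 0 called by DESeq2. The median of the digestive enzymes was 0.41 in the other kept barcodes and, in Apoa-led cells alone, -0.06 with 6 of 15 above 0. In Fabp6-led cells it was 0.40 with 10 of 11 above 0. Of these 1 was called higher, where 0.745% of all genes in that fit were. For bile acid genes the median was -0.13 (5 tested, 1 and 1), with Slc51a at 519 and 564 against 668 and 503. Levels that mix both kinds of cell also follow their make-up, and Apoa-led cells were 33.8, 42.2, 51.8 and 42.6% of members.

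Alcohol and drug metabolism moved in both directions. Adh6a, a class V alcohol dehydrogenase, fell most firmly, from 914 and 1034 normalised CPM in Lgr5+WT to 132 and 143 in Lgr5+Setdb1KO (log2 -2.82, SE 0.14, adjusted p = 1.43e-05). Its neighbour Adh1, which oxidises ethanol and retinol, rose from 102 and 78.7 to 268 and 201 (log2 1.36, SE 0.21, adjusted p = 0.0186). Thinned to 1000 UMIs, 29.2 and 39.1% of Lgr5+WT members had an Adh6a UMI against 10.8 and 8.21% of Lgr5+Setdb1KO members. Gm3776, a predicted glutathione S-transferase gene of the Gsta family, rose from 146 and 108 to 510 and 480 (log2 1.95, SE 0.17, adjusted p = 0.00121), while Gsta1 did not pass. How reads that fit both genes were counted was not checked. The glutathione transferase Gstm3 (306 and 281 against 533 and 644, log2 1.00, SE 0.14), the carboxylesterase Ces2a (158 and 140 against 274 and 297, log2 0.93, SE 0.15), the glucuronosyltransferase Ugt2b5 (56.3 and 51.0 against 141 and 110, log2 1.21, SE 0.21) and the acetyltransferase Nat8 (38.7 and 34.0 against 124 and 125, log2 1.76, SE 0.21) rose as well, with adjusted p of 0.0154, 0.0283, 0.0468 and 0.0056. Of the 27 genes on the xenobiotic list 25 were tested, with 3 called higher and 1 lower, a median of 0.28, and 13 higher and 2 lower without overlap, where 0.28% of all tested genes were called higher, 0.205% lower, and 21.7 and 20.4% lay higher and lower without overlap. In Apoa-led cells alone the 25 genes had a median of -0.01, 11 above and 14 below 0, with none called higher and 1 lower. In Fabp6-led cells 16 were tested, with a median of 0.29, 12 above and 4 below 0. Of them 1 was called higher, where 0.745% of all genes in that fit were.

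Several genes were near 0 in one genotype. The long noncoding RNA Gm42031 had 1 and 0 UMIs in Lgr5+WT members and 56 and 83 in Lgr5+Setdb1KO members, found in 1, 0, 35 and 59 cells (fitted log2 6.05, SE 0.59, adjusted p = 0.00167, a value that depends on the prior count). Plscr2, a phospholipid scramblase, had 0, 1, 34 and 40 UMIs (adjusted p = 0.00977). Both were spread over cells of both Lgr5+Setdb1KO libraries and next to absent from Lgr5+WT. Tm4sf4, a membrane protein of the L6 family, rose from 5.3 and 6.4 to 71.7 and 60.1 normalised CPM (adjusted p = 0.0037), but in each Lgr5+Setdb1KO library a single cell gave 28 UMIs, of 62 and 59. Ceacam10, a secreted member of the carcinoembryonic antigen family, fell from 52.8 and 110.6 to 3.5 and 7.1 (log2 -3.85, SE 0.50, adjusted p = 0.00966). Empty droplets were near the members for both genes, with Tm4sf4 at 20.8, 20.2, 65.7 and 86.3 CPM and Ceacam10 at 76.2, 67.5, 9.6 and 6.16 CPM. Over the 26 called genes, empty droplets stood at or above the members in at least 1 library for 6, ties at 0 counted. These were Ceacam10, Gm42031, Lamtor3, Plscr2, Rnase4 and Tm4sf4. Gm42031 and Plscr2 did so in Lgr5+WT alone, with 1 UMI or none in empty droplets. In Lgr5+Setdb1KO members Gm42031 stood at 62.4 and 80.5 CPM against 8.59 and 18.5 in empty droplets, and Plscr2 at 37.9 and 38.8 against 6.06 and 12.3. For 19 of the 26, empty droplets lay the same way between genotypes without overlap. The share of all genes that did so was not counted, so 19 has no background to be read against. The part of free RNA in these changes was not tested.

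Among the other genes that rose were Guca2b, which encodes uroguanylin and regulates salt and water secretion, from 496 and 602 to 1145 and 971 (log2 0.95, SE 0.14, adjusted p = 0.0186), and Alad, of heme synthesis, from 80.9 and 87.2 to 210 and 206 (log2 1.31, SE 0.16, adjusted p = 0.0078). Hdhd3, which lies next to Alad, rose as well (114 and 123 against 281 and 215, log2 1.06, SE 0.18, adjusted p = 0.0397). Ms4a10 (log2 1.13, adjusted p = 0.0119) and the ribonuclease Rnase4 (17.6 and 27.7 against 70.5 and 100.8, log2 1.95, adjusted p = 0.0283) completed them, with Rnase4 in empty droplets at 55.5, 47.2, 60.6 and 142 CPM and Alad at 72.8, 80.9, 169 and 148 CPM. Pccb fell from 167 and 132 to 54.3 and 34.6 (log2 -1.76, SE 0.24, adjusted p = 0.0119), and the mitochondrial protein gene AA467197 from 130 and 240 to 28.9 and 45.8 (log2 -2.27, SE 0.32, adjusted p = 0.0119). Also lower were 1810065E05Rik (178 and 238 against 47.4 and 35.6, adjusted p = 0.00167), 2210407C18Rik (798 and 1004 against 488 and 432, adjusted p = 0.0186), the Ragulator subunit Lamtor3 (54.5 and 46.8 against 15.0 and 6.1, adjusted p = 0.0468) and Mgat4c (412 and 372 against 213 and 218, adjusted p = 0.0255). Mgat4c is a gene of Fabp6-led cells, and within them it was not called (log2 -0.58, SE 0.16, adjusted p = 0.113). The folds of Ces2a, Guca2b and Gstm3 were smaller in Apoa-led cells alone (log2 0.35, 0.42 and 0.53, none called), where their levels were highest. Left out in turn, the single Lgr5+WT libraries mattered most: without replicate 1 of Lgr5+WT 8 of the 26 genes still passed, and without replicate 2 of it 9 did, while all 26 passed without either Lgr5+Setdb1KO library. Adh6a, Reg3b, Gm42031 and 1810065E05Rik passed in every alternative fitted for them.

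Antigen presentation was lower in sign without passing in the members as a whole. All 6 tested MHC class II genes lay lower in both Lgr5+Setdb1KO libraries, with a median log2 change of -0.88 and none called by edgeR, while all 6 had an unadjusted p under 0.05 and DESeq2 called 1. Cd74, the invariant chain, stood at 2304 and 2129 against 835 and 1592 normalised CPM (log2 -0.87, SE 0.24, adjusted p = 0.19) and H2-Aa at 278 and 253 against 80.9 and 153 (log2 -1.17, SE 0.25, adjusted p = 0.0872). Of 15 tested MHC class I genes 10 lay lower and 1 higher without overlap (median -0.31), with H2-D1 at 682 and 700 against 494 and 418 (adjusted p = 0.0939), and of 11 tested interferon genes 8 lay lower and 2 higher (median -0.92), with Zbp1 at 29.9 and 29.8 against 9.25 and 6.11 (adjusted p = 0.0887). Over all tested genes 20.4% lay lower and 21.7% higher without overlap, and 610 of 5355 had an unadjusted p under 0.05. No gene of these latter lists passed in edgeR, with 4 and 10 at an unadjusted p under 0.05 and 1 and 0 called by DESeq2. Empty droplets held Cd74 at 589, 432, 49.5 and 222 CPM, and the T cell and blood list was at 0.0249% of UMIs in Lgr5+WT replicate 1 and at 0 elsewhere. Their part in these values was not tested.

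The remaining lists gave few calls. Villus bottom genes had 2 of 9 called lower, Reg3b and Dmbt1, where 0.205% of all tested genes were, and a median of -0.24, and 6 tested villus top genes a median of 0.37 with 3 higher without overlap and none called. As a balance of top over bottom, the log2 ratio of summed UMIs was -5.93 and -6.21 in Lgr5+WT and -4.51 and -4.57 in Lgr5+Setdb1KO, a difference of 1.53 (exact two-sided permutation test p = 0.33, the smallest it can give). Averaged over genes as log2(CPM + 10), which gives each gene the same weight, the difference was 0.826. The bottom list is dominated by the Reg3 genes, and it summed to 41999.5 and 47545.5 CPM against 20884.6 and 18906.9, whereas the top list summed to 685 and 639 against 919 and 792. Transporters (17 tested, median 0.17) and brush border structure (17 tested, median 0.17) had 5 and 7 genes higher and 2 and 2 lower without overlap, against 21.7 and 20.4% of all tested genes. Ribosomal protein genes had 28 of 81 higher and 3 lower, oxidative phosphorylation genes 18 of 90 higher and 10 lower, and mitochondrially encoded genes 0 of 12 higher and 8 lower. None of these 5 lists held a gene called by edgeR or DESeq2, and 4, 2, 0, 2 and 2 of their genes had an unadjusted p under 0.05. Over all tested genes 610 of 5355 did, and the same share stands beside the counts in brackets below. Of 21 tested transcription factors 7 lay higher and 8 lower (median -0.16), among them Hnf4a at 75.6 and 55.3 against 57.8 and 67.2 and Cdx2 at 167 and 179 against 182 and 186 normalised CPM. No call was made by edgeR or DESeq2 among 14 tested genes of cell death (2 at an unadjusted p under 0.05), 11 immediate early and stress genes (1), 6 genes of H3K9 methylation (0), 4 metallothionein and zinc genes (0), 5 stem cell genes (0), 6 proliferation genes (3), 3 goblet genes (1), 2 Paneth genes (0) and 2 enteroendocrine genes (0), nor among the 21 transcription factors (2), and no tuft or T cell and blood gene passed the filter on low counts.

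Fitted within each kind of cell, a choice made after seeing the data, the 2 kinds gave partly different calls. In Fabp6-led cells 47 of 3895 genes passed (1.21%), 29 higher (0.745%) and 18 lower (0.462%), and in Apoa-led cells 16 of 3118 (0.513%), 9 higher (0.289%) and 7 lower (0.225%). Called in both were Reg3b and Cyba lower and Gm42031, Alad and Guca2a higher. Reg3b stood at 30976 and 29097 against 15368 and 7993 normalised CPM in Fabp6-led cells (log2 -1.36, SE 0.21, adjusted p = 0.00211) and at 11999 and 22420 against 3758 and 4326 in Apoa-led cells (log2 -2.09, SE 0.24, adjusted p = 3.5e-05). Reg3b was thus lower in each kind of cell. Guca2a lay below its level in empty droplets in both kinds and in every library, Cyba did in Apoa-led cells (empty droplets at 260, 202, 85.9 and 80.1 CPM), and Alad in Fabp6-led cells (71.8 and 78.6 against 203 and 160) was close to empty droplets (72.8, 80.9, 169 and 148 CPM). Over all calls, empty droplets stood at or above the cells in at least 1 library for 18 of the 47 genes in Fabp6-led cells and for 7 of the 16 in Apoa-led cells, ties at 0 counted. For 28 and 11 they lay the same way between genotypes without overlap. The share of all genes that did so was not counted, so 28 and 11 have no background to be read against. The part of free RNA in these calls was not tested.

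In Fabp6-led cells Reg3g passed as well (14186 and 14956 against 3417 and 6983, log2 -1.48, SE 0.22, adjusted p = 0.00138), as did Dmbt1 (591 and 766 against 138 and 186, log2 -2.04, SE 0.20, adjusted p = 1.15e-05). So did immune genes that missed the threshold over all members. Cd74 stood at 2848 and 2930 against 1451 and 1995 (log2 -0.74, SE 0.15, adjusted p = 0.0121), H2-Aa at 336 and 349 against 151 and 177 (log2 -1.05, SE 0.19, adjusted p = 0.0063), and H2-D1 (log2 -0.80, adjusted p = 0.0121) and the immunoproteasome genes Psmb8 (log2 -0.88, adjusted p = 0.00947) and Psmb9 (log2 -1.10, adjusted p = 0.0139) were lower too. All 6 MHC class II genes had a negative change there, with 2 called and a median of -0.74, and in Apoa-led cells all 6 were negative with none called and a median of -0.87.

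Among the genes called higher in Fabp6-led cells, several were at low levels there. Fabp2 stood at 405 and 424 against 1539 and 1468 (log2 1.86, SE 0.15, adjusted p = 1.29e-06), uroguanylin Guca2b at 172 and 92.3 against 400 and 313 (log2 1.40, SE 0.24, adjusted p = 0.00507) and Reg3a at 198 and 68.4 against 447 and 352 (log2 1.54, SE 0.29, adjusted p = 0.00919). Mogat2 (log2 1.15, adjusted p = 0.0307) and the fructose kinase Khk (log2 1.42, adjusted p = 0.00919) rose too. Rbp2 (40.2 and 37.6 against 190 and 192, log2 2.28, SE 0.26, adjusted p = 8.79e-05) and Fabp1 (34.5 and 58.1 against 179 and 95.8, log2 1.55, SE 0.35, adjusted p = 0.0318) passed, but at levels below those of empty droplets. Those held Rbp2 at 263, 486, 1041 and 647 CPM and Fabp1 at 295, 621, 2404 and 555 CPM. How much of the UMIs of either gene in these cells was free RNA was not tested. Empty droplets summed to 288568, 148246, 1979420 and 162250 UMIs, most in Lgr5+Setdb1KO replicate 1. For Fabp2 the empty droplets held 991, 944, 2133 and 1276 CPM, close to or above its level in Fabp6-led cells. Guca2b in empty droplets stood at 149, 209, 160 and 160 CPM and Reg3a at 3.5, 13.5, 33.8 and 43.1 CPM. Of the fat uptake list all 14 tested genes had a positive change in Fabp6-led cells, with 3 called and a median of 0.52, and 13 of 16 did in Apoa-led cells, with none called and a median of 0.12. Over all genes 1945 of 3895 had a positive change in the fit of Fabp6-led cells, and 0.745% were called higher.

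In Apoa-led cells Adh6a, Pccb and Gm3776 were called. Adh6a fell from 2659 and 3008 to 239 and 329 normalised CPM (log2 -3.32, SE 0.19, adjusted p = 3.33e-10), and in Fabp6-led cells it was too low to be tested. Pccb fell from 301 and 236 to 51.6 and 23.8 (log2 -2.80, SE 0.32, adjusted p = 2.85e-05), Gm3776 rose from 415 and 291 to 907 and 1071 (log2 1.48, SE 0.20, adjusted p = 0.000197) and guanylin, Guca2a, was called higher (67.4 and 80.6 against 230 and 455, log2 2.21, SE 0.33, adjusted p = 0.000613) at levels below those of empty droplets (894, 715, 984 and 974 CPM). 2210407C18Rik fell as well (log2 -1.45, adjusted p = 3.5e-05). Fabp2 stood at 12518 and 11102 against 24512 and 18784 (log2 0.87, SE 0.21, adjusted p = 0.065), and Fabp1 (log2 0.23, adjusted p = 0.893), Rbp2 (log2 0.18, adjusted p = 0.903) and Reg1 (log2 -0.75, adjusted p = 0.111) gave no call. Dmbt1, higher in Fabp6-led cells, gave none in Apoa-led cells either (log2 -0.53, adjusted p = 0.63). Whether the effects differ between the 2 kinds was not tested.

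**Figure D4:**
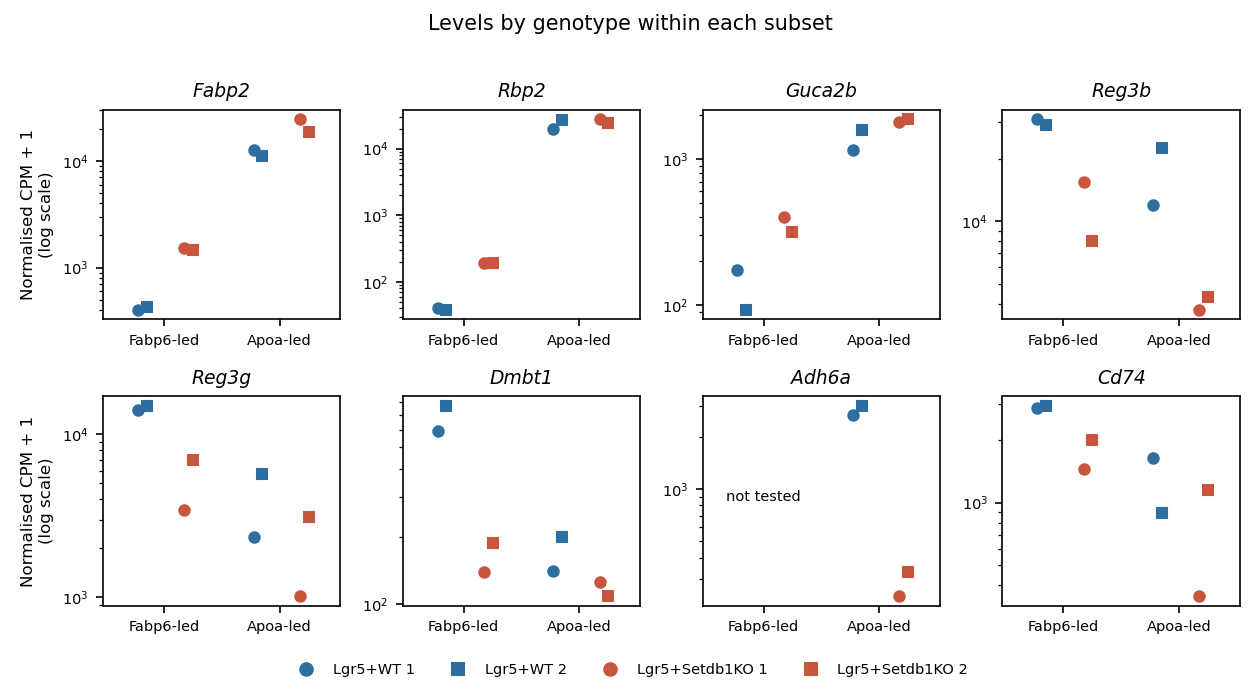
Normalised CPM (log axes that differ by panel) of 8 genes in Fabp6-led and Apoa-led cells, with Lgr5+WT in blue, Lgr5+Setdb1KO in red and a mark for each library. Reg3b lies lower in Lgr5+Setdb1KO in both kinds, Adh6a was tested in Apoa-led cells alone, and Rbp2 in Fabp6-led cells lies under the level of empty droplets.

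To see which changes were particular to the enterocytes, the effect of genotype in the members was compared with that in all other kept barcodes of the same libraries, in one edgeR fit with the library as a block. The effects differed for 52 of 12576 genes (0.413%), 38 with a higher value in members (0.302%) and 14 with a lower one (0.111%). Of the 26 genes called in the members 14 were also called in the other barcodes, where 176 of 13616 genes passed (1.29%), 103 higher (0.756%) and 73 lower (0.536%), and for 11 the effects differed. Adh6a fell alike in both (log2 -2.82 in members, -2.70 in the others), as Gm3776 (1.95 and 2.23), Gm42031 (6.05 and 4.68) and Plscr2 (5.15 and 5.59) rose in both, and no difference of effects was called for these 4 genes. Fabp2 differed, with a log2 change of 0.58 outside the members and a difference of 0.86 (adjusted p = 0.000461), as did Guca2b (0.12 outside, difference 0.88, adjusted p = 2.81e-05), Dmbt1 (-0.51 outside, difference -1.21, adjusted p = 6.64e-09) and Pccb (difference -1.48, adjusted p = 1.49e-07). Reg3b changed by -1.41 outside the members (adjusted p = 0.117) and its effects were not called different.

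The MHC class II genes showed the reverse, with a smaller drop in the members than around them. Cd74 changed by -0.87 in members and -2.03 outside (difference 1.31, adjusted p = 1.39e-11), H2-Aa by -1.17 and -2.36 (difference 1.28, adjusted p = 8.97e-09), H2-Eb1 by -0.98 and -2.06 (difference 1.20, adjusted p = 1e-07) and H2-Ab1 by -0.89 and -1.82 (difference 1.03, adjusted p = 7.05e-06). The class II list summed to 0.332, 0.297, 0.122 and 0.211% of UMIs in members, to 0.244, 0.155, 0.0279 and 0.0678% in the other kept barcodes and to 0.107, 0.0695, 0.0104 and 0.0388% in empty droplets. The level in the members was thus above that around them in every library, and the gap was widest in relative terms in Lgr5+Setdb1KO. Some of the largest fitted differences rested on 1 or a few cells. The enteroendocrine hormone Gip (difference 5.56) had 0, 1, 9 and 328 UMIs in members, of which 308 came from 1 cell, and of Ly6m, a Ly6 family gene (14.02), all 50 UMIs of Lgr5+Setdb1KO replicate 1 came from 1 cell. The muscle actin Acta1 (11.62) had 0, 0, 12 and 18 UMIs, from 4 and 5 cells.

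**Figure D5:**
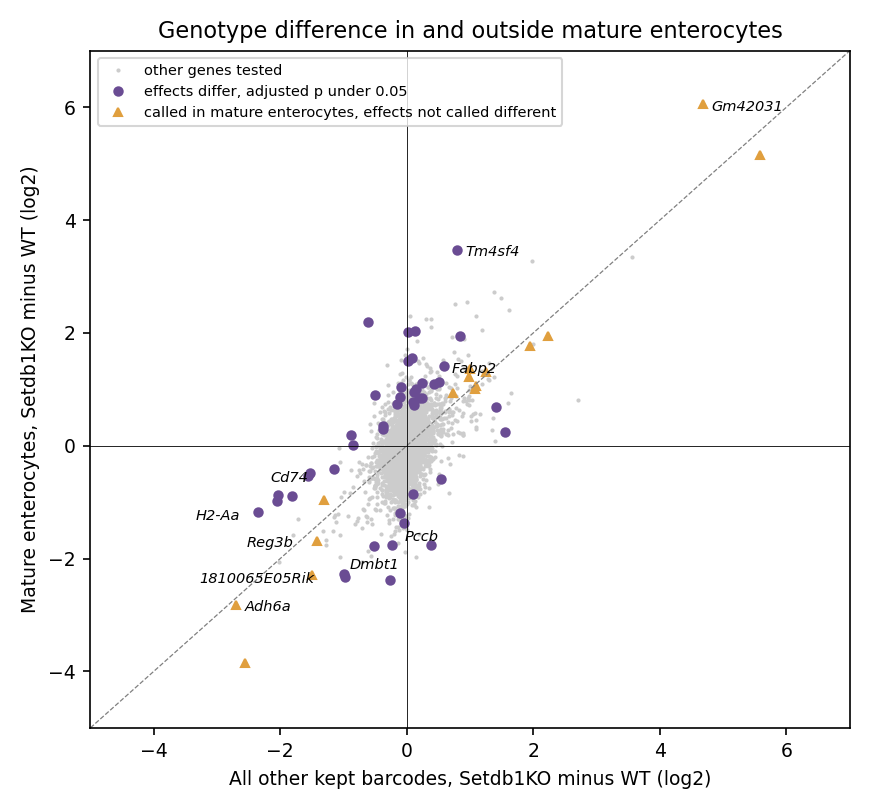
Log2 change of Lgr5+Setdb1KO minus Lgr5+WT in mature enterocytes (vertical) against that in all other kept barcodes (horizontal) for 5352 genes, of which 2 lie outside the axes. Purple points are the 44 plotted genes whose effects differ, orange triangles genes called in the members with no called difference; Cd74 and H2-Aa lie above the diagonal and Dmbt1 and Pccb below it.

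Against the lineage-traced enterocytes picked by the same limits, the effect of genotype differed for 489 of 5699 genes (8.58%), 370 with a higher value in the Lgr5+ sort (6.49%) and 119 with a lower one (2.09%). This fit compares cells that differed in Defa transcripts as given above, and it rests on 10 and 65 traced Setdb1KO cells of which 90 and 89.2% were Fabp6-led, against 30.2 and 41.6% in traced WT, and their median depth was 1546 and 1675 UMIs in traced WT and 2079 and 2439 in traced Setdb1KO, under the 4877 or more of the Lgr5+ libraries. The genes with higher values in the Lgr5+ sort included genes that stood higher in Apoa-led cells, such as Gm3776 (log2 1.95 in the Lgr5+ sort and -3.19 in the traced sort), Gstm3 (1.00 and -4.56), Ces2a (0.93 and -4.32) and Fabp2 (1.41 and -3.56, difference 4.88), and those with lower values included Fabp6-led genes, such as Cd9 (difference -2.34) and Fgfbp1 (difference -2.74). In the traced sort alone 760 of 2160 genes passed (35.2%), 280 higher (13%) and 480 lower (22.2%). The part of cell make-up and of Defa transcripts in these differences was not tested. Adh6a fell in both sorts (-2.82 and -2.30, adjusted p = 3.96e-05 in the traced sort), as did AA467197 (-2.27 and -2.07, adjusted p = 0.00527), and neither difference was called. Adh6a was a gene of Apoa-led cells, which were 69.8 and 58.4% of traced WT enterocytes and 10 and 10.8% of traced Setdb1KO ones. The part of that make-up in its traced fall was not tested. Reg3b changed by -0.18 in the traced sort (adjusted p = 0.74) and the difference from the Lgr5+ sort was not called (adjusted p = 0.148). Of the 26 genes called in the members 16 could be tested in the traced sort and 13 had effects that differed between the sorts.

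Some of the called genes lay on the chromosome of Setdb1. On mouse chromosome 3 (GRCm38) Setdb1 spans 95323525 to 95357202, and Adh6a (138313286 to 138331134), Adh1 (138260991 to 138290698), Lamtor3 (137918506 to 137928900), Fabp2 (122895072 to 122899506), Gstm3 and Tm4sf4 lie on it too, 12.6 to 43.0 Mb away. They were 6 of 26 called genes (23.1%), while 287 of 5352 tested genes with a position (5.36%) lay on that chromosome, and among genes called in the other kept barcodes 18 of 176 did (10.2%). Of the calls within Fabp6-led cells 4 of 47 (8.51%) lay there, and of those within Apoa-led cells 2 of 16 (12.5%). Adh6a, Adh1 and Lamtor3 lie within 0.5 Mb of each other, and Adh6a and Lamtor3 fell while Adh1 rose. Sequence near the floxed allele is inherited with it, so in this design the part of position in these changes cannot be told apart from that of the loss of Setdb1.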

How the data were processed

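Single-cell RNA-seq libraries (10x 3′ chemistry) of 4 Lgr5+ and 4 lineage-traced sorts were analysed. The authors deposited raw UMI counts per gene and barcode for all barcodes, before any filter on cells. The submitters' processing notes name Cell Ranger 6.1.1 and Seurat 5.0.3; the genome build of these libraries is not given in the sources used here, and gene positions were looked up by identifier in GENCODE vM21 (GRCm38). The authors removed doublets with a caller before their own analysis, but here no doublet caller was run, and the limits on goblet and Defa transcripts and the loads of other cell types stand in for it. A share per cell rises with depth, so shares of cells with a UMI were compared after thinning each cell to 1000 UMIs. Members and gene lists were chosen with earlier results of these data known.

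UMIs were summed per library over members, filtered with filterByExpr, scaled by TMM and tested with edgeR 4.0.16 (glmQLFit and glmQLFTest, R 4.3.3), adjusted by Benjamini-Hochberg over all genes tested, at a threshold of 0.05. The 13 fitted genes that chose the cells were left out after the adjustment. Interaction terms compared the genotype effect with that in other kept barcodes (library as a block) and in traced enterocytes. Single values were compared by exact two-sided permutation. Named genes were, per comparison, up to 15 in each direction with the smallest adjusted p under 0.05, a log2 change of at least 1 and no overlap between genotypes, the list members that passed and up to 4 abundant members per list, the given markers, and Setdb1, Lgr5, Olfm4 and Mki67. Genes outside this rule (the region genes, and genes called with a log2 change under 1) were named after their values were seen. Alternatives used DESeq2 1.42.0, other limits, scalings and filters, and each library left out. In data simulated for the comparison in members, changed genes were drawn from the more abundant ones and all genes shared the same dispersion. There the test recovered 86% of 100 genes changed 2-fold and 99% of 100 changed 4-fold, with 11 false among 196 calls. The simulation held no outlier cells, so these rates need not hold for the real comparison or for genes with few UMIs. Replicates differed beyond counting noise. They are the only measure of spread behind the p-values. Replicate numbers did not pair the samples (correlation of deviations -0.038 over 2277 genes).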

Additional observations from a re-analysis of the deposited data

Results flagged for a closer look

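The effect of genotype in the members differed from that in the other kept barcodes by an edgeR interaction test for 52 genes. With higher values in the members, the differences in log2 change were 5.56 for Gip, 2.80 for Tm4sf4, 1.31 for Cd74, 1.28 for H2-Aa and 1.20 for H2-Eb1. With lower values they were -1.21 for Dmbt1, -1.48 for Pccb, -2.08 for Myl7, -1.07 for the retinol binding protein Rbp7 and -1.32 for 1810065E05Rik. For Gip 308 of 328 UMIs of Lgr5+Setdb1KO replicate 2 came from 1 cell, and for Tm4sf4 single cells gave 28 of 62 and 28 of 59 UMIs of the Lgr5+Setdb1KO libraries.

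The effect in the Lgr5+ sort differed from that in the lineage-traced sort for 489 genes by the same kind of test, with a median difference of 0.16 over all genes tested. Differences above this were 9.58 for Tm4sf4, 6.01 for Gstm1, 5.46 for Gstm3, 5.16 for Ces2a and 5.03 for Gm3776, and those below it -2.74 for Fgfbp1, -2.67 for Dmbt1, -2.43 for the peptidoglycan recognition protein Pglyrp1, -2.34 for Cd9 and -2.23 for the NADPH oxidase subunit Cyba. The share of kept barcodes that were enterocytes moved in opposite directions in the sorts, with a difference of 3.92 on the log2 scale (exact permutation p = 0.0556). With goblet genes under 0.25% and Defa genes under 1% no traced WT barcode was left, so that setting cannot compare the shares. The traced Setdb1KO side of these values rests on 10 and 65 cells, mostly Fabp6-led.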

How the results depend on the processing

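The count of genes changed in members was 26 in the fit reported and moved with several settings: 66 with the rule at 0.25% of UMIs, 48 at 1%, 207 with no filter on low counts and, chosen after seeing the data, 47 in Fabp6-led cells alone, 16 in Apoa-led cells alone and 56 in members with no Olfm4 UMI. With the replicate block it was 24 of which 18 were among the 26, and since the numbers do not pair the samples the calls lost are not read as weaker effects. Leaving out 1 library gave 8 to 206 genes: 8 without Lgr5+WT replicate 1, 13 without Lgr5+WT replicate 2, 80 without Lgr5+Setdb1KO replicate 1 and 206 without Lgr5+Setdb1KO replicate 2. In those fits the lone library of a genotype is assumed to vary like the pair of the other. Of the 26 genes, all kept their call with stricter goblet and Defa limits, at least 2000 UMIs, no filter or DESeq2's size factors, 25 at 0.25%, 23 at 1% and in DESeq2, and 18 with a mitochondrial limit of 10%. Of the 21 that could be fitted in each kind, 15 kept it in Fabp6-led and 10 in Apoa-led cells alone. No value changed sign. The genes whose effect differed from the other kept barcodes numbered 30 to 46 with a library left out (30 without Lgr5+Setdb1KO replicate 1, 34 without Lgr5+Setdb1KO replicate 2). Against the traced sort they numbered 299 from 2000 UMIs, 317 with the replicate block, 338 to 444 with an Lgr5+ library left out and 749 without traced Setdb1KO replicate 1, which holds 10 cells (also chosen after seeing the data); the fit under stricter goblet and Defa limits could not be made. The difference in share was 0.504 to 1.67 points with a library left out, 1.74 at 0.25% and 0.621 at 1%, and the difference in villus balance was 1.39 to 1.67 with a library left out and 0.826 as a mean over genes of log2(CPM + 10). The causes of these shifts were not tested. Depth limits the members most where UMIs are few, as for Setdb1, Lgr5, Nt5e and Slc28a2.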

Other observations

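Both Flywch1 and Acaa2 had effects that differed between members and other kept barcodes without being called in the members. The zinc finger gene Flywch1 stood at 10.6 and 8.51 normalised CPM in Lgr5+WT members and at 43.9 and 36.7 in Lgr5+Setdb1KO members (log2 2.04, SE 0.39, adjusted p = 0.0573) and changed by 0.13 elsewhere (difference 2.00, adjusted p = 0.0173). The thiolase Acaa2, of fatty acid oxidation, stood at 236 and 285 against 547 and 387 (log2 0.84, SE 0.19, adjusted p = 0.0949), with 0.19 elsewhere (difference 0.68, adjusted p = 0.015). Empty droplets held it at 118, 155, 166 and 160 CPM. Both Lgr5+Setdb1KO libraries lay above both Lgr5+WT libraries for these genes.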
